A study of Mus musculus with 51 samples.

Results

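Wild-type mouse embryonic stem cells (mESCs) were compared between day 2.5 and day 3 of differentiation towards neuromesodermal progenitors (NMPs), that is, between 12 h and 24 h of exposure to CHIR99021, an inhibitor of GSK3 that activates canonical Wnt signalling. The members were the 4 wild-type libraries labelled day 2.5 and the 4 labelled day 3, 8 of the 51 samples of the series, and the 73 genes for which log2 RPKM values (reads scaled for exon length and library depth, on a log2 scale) were deposited. These genes are 39 *Hox* genes and 34 pluripotency and differentiation factors. All 8 libraries carried the genotype Smchd1[fl/+] (wild-type) in male C57BL/6/Cast F1 cells, in which no Cre had deleted *Smchd1*. The cells of both days had received FGF from day 0 and CHIR99021 from day 2. GDF11 entered the medium on day 3, and the study places day 4 at 24 h after this addition. The labels do not say whether the day 3 cells were harvested before it. On each day, 3 libraries came from line 1 (replicates 1 to 3) and 1 came from line 2 (replicate 4) by the labels, whereas the study describes technical replicates of both lines, so p-values measure the spread between these libraries and not between independent lines. RNA was taken from whole cultures, so a larger share of cells that express a gene and more RNA per cell cannot be told apart.

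NMPs are cells of the caudal embryo that give rise to both spinal cord and paraxial mesoderm, and they carry *T* (brachyury, named *Tbra* in the files) together with *Sox2*. Canonical Wnt signalling stabilises β-catenin, which acts with TCF/LEF factors on targets such as *Axin2*, *T* and the caudal genes *Cdx1* and *Cdx2*. The *Hox* genes encode homeodomain transcription factors that set position along the body axis. They lie in clusters A to D on mouse chromosomes 6, 11, 15 and 2, and genes of lower paralog number tend to be switched on earlier and further anterior than those of higher number.

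The values implied between 1983613 and 37783681 counted reads per library on day 2.5 and between 2111208 and 52833669 on day 3. Replicate 3 was the shallowest of both days, and on day 2.5 it held 231 reads over the 27 *Hox1–9* genes against 2203 to 11572 in the other libraries. A gene with no read was given the value of 0.9 reads, which falls as depth rises. *Hoxc12* and *Hoxd12* had 0 reads in all 8 libraries and still differed by 0.29 in mean log2 RPKM (day 3 minus day 2.5), which is a difference in depth alone. By replicate number this difference was -0.83, 0.01, -0.09 and 2.06 in replicates 1 to 4. Day 3 replicate 1 stood apart, with the lowest value of its day for 25 of the 27 *Hox1–9* genes. Day 3 replicate 2 had the highest for 17 of them. Of the cell type markers that were listed, all 6 for pluripotent cells and 6 of 8 for neuromesodermal cells were in the tables, and 0 of the markers of presomitic mesoderm, neural cells or endoderm were, so the share of those cells could not be described. The summed level of the pluripotent markers ranged from 210 to 480 RPKM on day 2.5 and from 134 to 248 RPKM on day 3. *Pou5f1* made up most of this sum, with means of 283 and 155 RPKM. None of the 6 was called, and *Klf4* had a higher mean on day 3. The summed level of the neuromesodermal markers ranged from 203 to 572 RPKM on day 2.5 and from 195 to 783 RPKM on day 3.

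Between 12 h and 24 h of CHIR99021, 13 of the 39 *Hox* genes rose, all of them of paralogs 3 to 9, a range read off the calls. *Fgf8* rose, *Tdgf1* fell, and no other caudal, Wnt or pluripotency factor passed the test. Of the 73 genes, 15 (20.5%) had an adjusted p-value under 0.05 (limma, Benjamini-Hochberg over the 73 genes), of which 14 (19.2%) were higher and 1 (1.37%) was lower on day 3. The 14 were 13 *Hox* genes and *Fgf8*, and the gene that fell was *Tdgf1*. In 10 genes (13.7%) all 4 day 3 libraries lay above all 4 day 2.5 libraries, and in 3 (4.11%) they lay below. The median difference over all 73 genes was 0.46 on the log2 scale, over the 39 *Hox* genes 1.29 and over the 34 factors 0.11. The number of calls rested on few libraries. It was 1 without day 2.5 replicate 4, day 3 replicate 2, day 3 replicate 3 or day 3 replicate 4, 5 without day 2.5 replicate 1, and 23 without day 3 replicate 1. With line 1 alone (3 libraries against 3) it was 0, with 18 genes at an unadjusted p-value under 0.05.

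**Figure D1:**
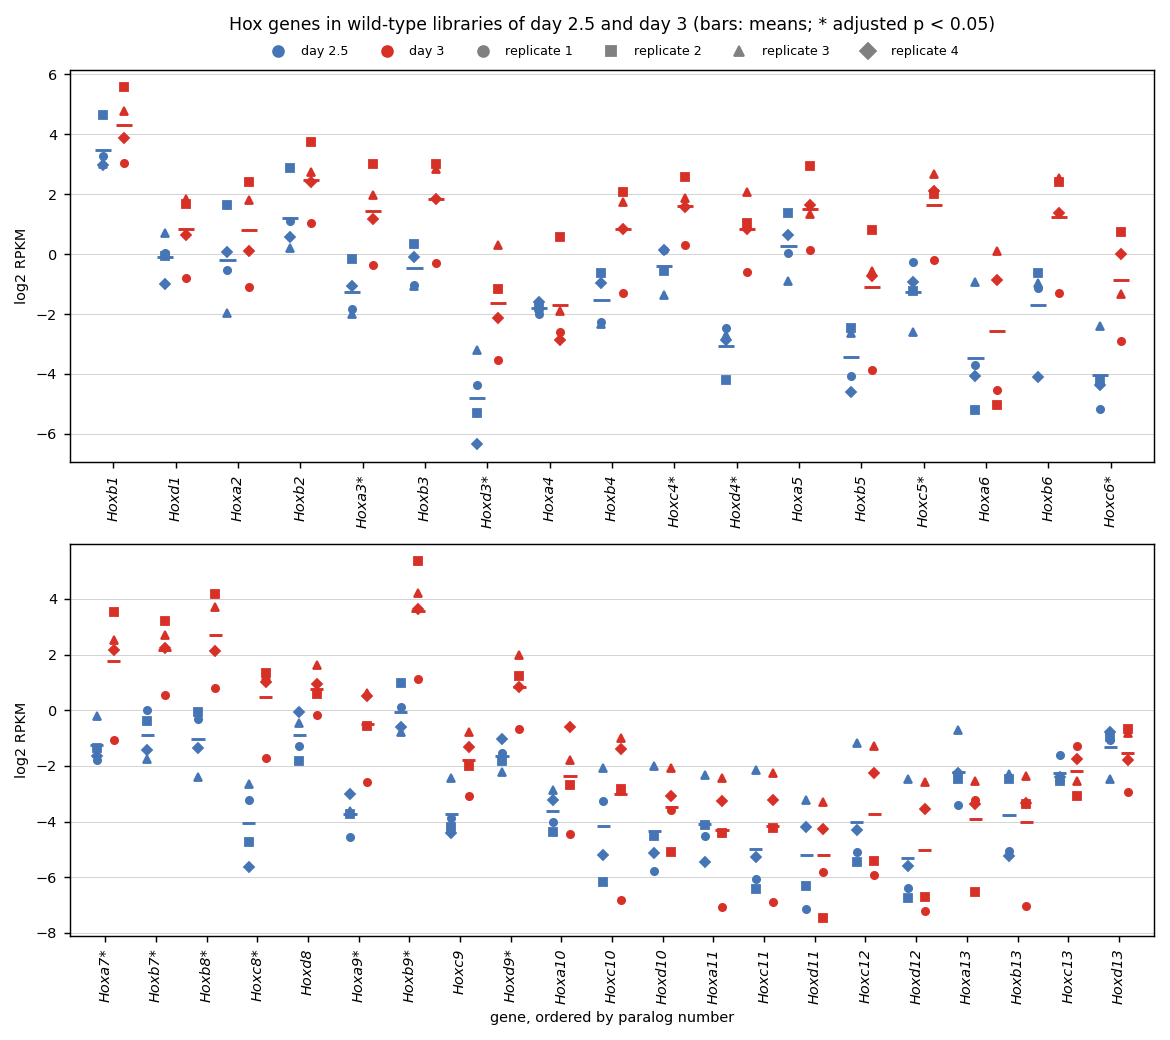
Level of the *Hox* genes (log2 RPKM, vertical axis) in the 4 wild-type libraries of day 2.5 (blue) and of day 3 (red), with genes ordered by paralog number, a marker shape for each replicate number and short lines for the means. Asterisks mark the 13 genes called. The red mean lies above the blue for all 22 genes of paralogs 3 to 9, and all red points lie above all blue points in 9 of them. Day 3 replicate 1 is the lowest red point of most of these 22 genes. The genes of paralogs 10 to 13 carry few reads.

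The central *Hox* genes, of paralogs 5 to 9, held 9 of the 13 *Hox* calls among 15 genes, with a median difference of 2.95. *Hoxc8*, one of the genes that pattern the thoracic region (chromosome 15, 102990607 to 102994111, GRCm38), had log2 RPKM values of -3.23, -4.74, -2.64 and -5.61 in day 2.5 replicates 1 to 4. Its values were -1.70, 1.34, 1.23 and 1.03 on day 3. All day 3 libraries were higher, and replicate 1 was well below the other three. These levels rest on 9, 4, 0 and 1 reads on day 2.5 and on 46, 270, 14 and 24 reads on day 3. The difference was 4.53 ± 0.88 (SE, n = 4 per day, limma adjusted p = 0.0128), the largest of the 73 genes.

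*Hoxb8* and *Hoxb9* were among the most abundant *Hox* genes on day 3. *Hoxb8* measured -0.29, -0.05, -2.39 and -1.34 on day 2.5 and 0.82, 4.18, 3.71 and 2.14 on day 3, a difference of 3.73 ± 0.84 (SE, n = 4 per day, limma adjusted p = 0.0187). *Hoxb9*, its neighbour on chromosome 11, measured 0.13, 0.97, -0.77 and -0.62 on day 2.5 and 1.12, 5.35, 4.20 and 3.65 on day 3, a difference of 3.65 ± 0.86 (adjusted p = 0.0187 in the same limma fit). The days did not overlap for either gene. The *Hoxb9* value of day 3 replicate 1 exceeded the highest day 2.5 value by little, and the other three libraries lay far above it. *Hoxb9* was the fifth of the 39 *Hox* genes by mean level on day 2.5 and the third on day 3, and *Hoxb8* went from rank 12 to rank 4.

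Further genes of paralogs 7 and 9 rose as well. *Hoxb7* measured -0.00, -0.37, -1.77 and -1.42 on day 2.5 and 0.54, 3.21, 2.69 and 2.23 on day 3 (difference 3.06 ± 0.70, SE, n = 4 per day, limma adjusted p = 0.0187). *Hoxa9* measured -4.57, -3.72, -3.62 and -3.01 on day 2.5 and -2.56, -0.56, 0.61 and 0.51 on day 3 (difference 3.23 ± 0.75, limma adjusted p = 0.0187). *Hoxd9* rose from -1.65 ± 0.50 to 0.85 ± 1.12 (mean ± SD, n = 4 per day, limma adjusted p = 0.0264). The days did not overlap in any of these 3 genes. *Hoxa7* rose by 3.01 ± 0.91 (SE, limma adjusted p = 0.0393), but its day 3 replicate 1, at -1.08, lay below day 2.5 replicate 3, at -0.19. Of the exon bases of *Hoxa7*, 20.4% lie opposite an antisense transcript.

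*Hoxc5* and *Hoxc6* were called as well. *Hoxc5* measured -0.26, -1.22, -2.62 and -0.93 on day 2.5 and -0.20, 2.02, 2.69 and 2.10 on day 3 (difference 2.91 ± 0.75, SE, n = 4 per day, limma adjusted p = 0.0264). With the replicate number as a block its adjusted p was 0.0510, and over all alternatives it ranged from 0.00156 to 0.176. *Hoxc6* rose by 3.16 ± 0.87 (limma adjusted p = 0.0347), from 2, 5, 0 and 2 reads to 17, 152, 2 and 10 reads. The days of *Hoxc6* overlapped, since day 2.5 replicate 3 held no read and carried the level set by its depth, -2.41. The 6 central genes that did not pass the test were *Hoxa5*, *Hoxb5*, *Hoxa6*, *Hoxb6*, *Hoxd8* and *Hoxc9*, with differences between 0.90 (*Hoxa6*) and 2.95 (*Hoxb6*). *Hoxd8* (difference 1.65) and *Hoxc9* (1.92) were called under the block, each with an adjusted p of 0.0362, and over all alternatives their limma adjusted p ranged from 0.0306 to 0.296 and from 0.0139 to 0.392.

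Of the 12 anterior *Hox* genes, of paralogs 1 to 4, 4 were called, all among the 7 genes of paralogs 3 and 4, and the median difference was 1.64. Of the 3 genes of paralog 1 and the 2 of paralog 2, which take part in patterning the hindbrain, 0 were called, also at an unadjusted p-value under 0.05. *Hoxb1* and *Hoxd1* differed by 0.85 and 0.92, and *Hoxa2* and *Hoxb2* by 1.00 and 1.29.

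*Hoxd4* (chromosome 2, 74711929 to 74729160) had the smallest adjusted p-value of the 73 genes. It measured -2.46, -4.21, -2.70 and -2.86 on day 2.5 and -0.61, 1.06, 2.06 and 0.85 on day 3, a difference of 3.90 ± 0.68 (SE, n = 4 per day, limma adjusted p = 0.0112). Its reads were 16, 6, 0 and 7 on day 2.5 and 102, 230, 26 and 22 on day 3. It was called under 19 of the 20 alternatives in which it was tested, the exception being line 1 alone (limma adjusted p = 0.145), and its adjusted p was as low as 5.60e-04 in the limma fits of the others. *Hoxd3* rose by 3.18 ± 0.91 (adjusted p = 0.0351 in the same limma fit), with 6, 4, 0 and 0 reads on day 2.5 and 19, 71, 11 and 4 on day 3. The 2 genes could not be fully told apart from their neighbours, because 52.3% of the annotated exon bases of *Hoxd4* and 62.3% of those of *Hoxd3* are shared with another gene on the same strand, mostly the read-through model *Gm28230*. *Hoxa3* rose by 2.71 ± 0.77 (limma adjusted p = 0.0351), and 25.4% of its exon bases lie opposite antisense transcripts. *Hoxc4* rose by 2.00 ± 0.63 (limma adjusted p = 0.0459) with no overlap between the days, and its adjusted p was 0.0590 under the block and between 0.00720 and 0.278 over all alternatives.

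*Hoxb3* and *Hoxb4* fell just outside the threshold, both with an adjusted p of 0.0566 in the limma fit. Their differences were 2.31 and 2.38, and both were higher on day 3 in each replicate number. Under the block both were called, with adjusted p-values of 0.0365 and 0.0362, against ranges of 0.00234 to 0.306 and 0.00276 to 0.306 over all alternatives. Of the exon bases of *Hoxb3*, 52.9% lie opposite an antisense transcript. *Hoxa4* differed from the other genes of paralog 4, with a difference of 0.09 (95% interval -1.56 to 1.74). It held 0 reads in replicate 3 of both days and in day 3 replicate 4.

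**Figure D2:**
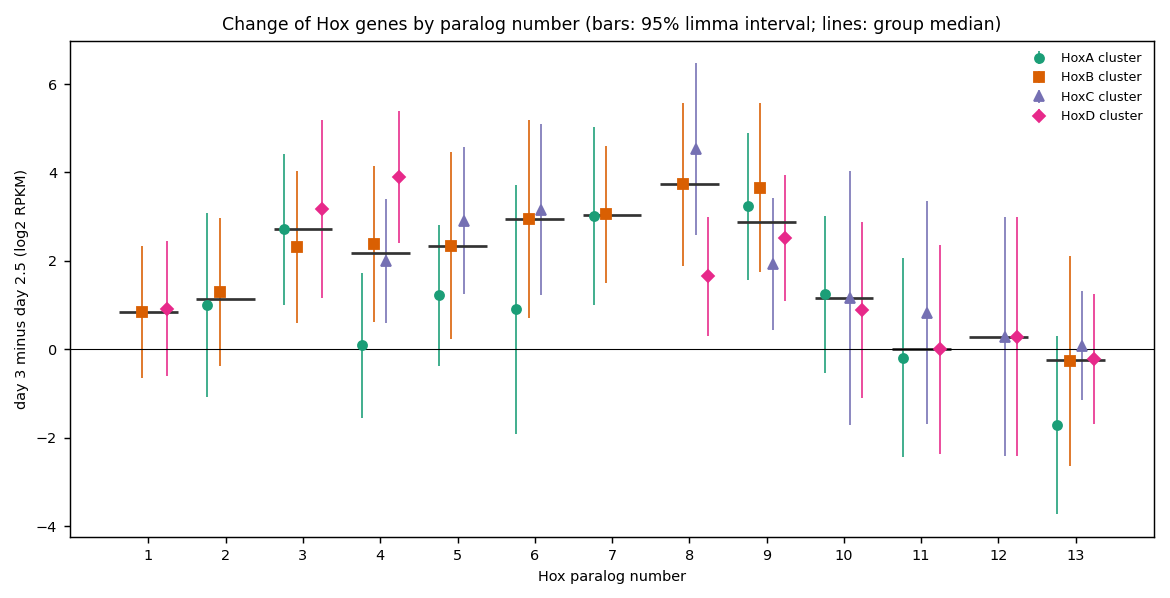
Difference in mean log2 RPKM between day 3 and day 2.5 (vertical axis) for the *Hox* genes, each against its paralog number, with colours and shapes for the clusters, bars for the 95% intervals of limma (n = 4 libraries per day) and black lines for the median of each paralog number. The medians go from 0.85 at paralog 1 to 3.73 at paralog 8, and the intervals of all genes of paralogs 10 to 13 include 0.

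Arranged by paralog number from 1 to 9, the median difference was smallest for paralogs 1 and 2. It was 0.85 for paralog 1, 1.14 for paralog 2, 2.71 for paralog 3, 2.19 for paralog 4, 2.34 for paralog 5, 2.95 for paralog 6, 3.04 for paralog 7, 3.73 for paralog 8 and 2.87 for paralog 9. Each of these medians covers 2 to 4 genes measured in the same 8 libraries, and no test was made of the order. By cluster and over paralogs 1 to 9, the numbers called were 3 of 8 genes for *HoxA*, 3 of 9 for *HoxB*, 4 of 5 for *HoxC* and 3 of 5 for *HoxD*. The *HoxC* and *HoxD* genes listed start at paralogs 4 and 1.

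The posterior *Hox* genes, of paralogs 10 to 13, which pattern lumbar, sacral and tail levels and the limbs, were not called in either direction (0 of 12). They held 253 reads in total on day 2.5 and 249 on day 3. *Hoxa10* had 6, 6, 0 and 6 reads on day 2.5 and 8, 19, 2 and 9 on day 3 (difference 1.24, 95% interval -0.53 to 3.01). *Hoxc11* had 0 reads on day 2.5 and 4 reads, all in replicate 2, on day 3. *Hoxa13* had 7, 17, 3 and 9 reads on day 2.5 and 14, 1, 0 and 1 on day 3, and its difference of -1.71 did not pass the test (limma adjusted p = 0.248). *Hoxd13* and *Hoxc13* held the most reads of this group, with 108 and 48 reads on day 2.5 and 82 and 67 on day 3, and differed by -0.23 and 0.09 (95% intervals -1.70 to 1.24 and -1.16 to 1.33).

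**Figure D3:**
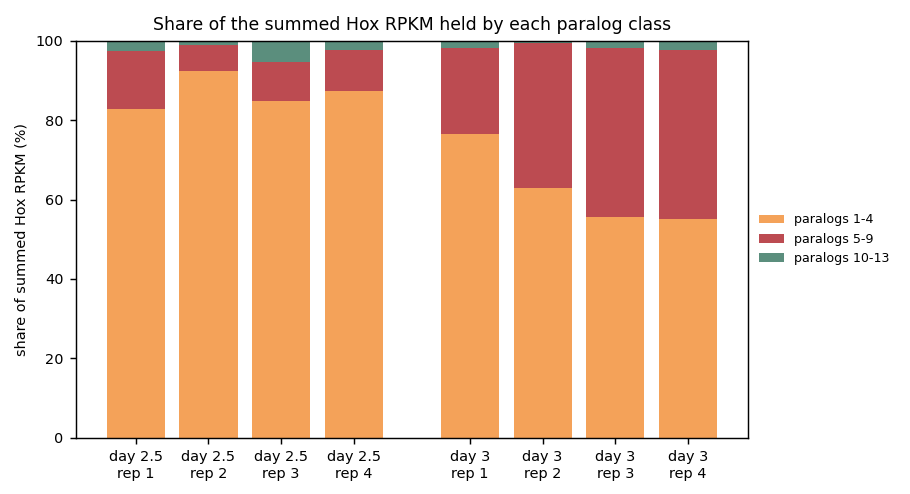
Share of the summed RPKM of the 39 *Hox* genes (percent, vertical axis, stacked to 100) held by paralogs 1 to 4, paralogs 5 to 9 and paralogs 10 to 13 in each of the 8 wild-type libraries. Paralogs 5 to 9 take 6.69% to 14.5% on day 2.5 and 21.8% to 42.6% on day 3.

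The make-up of *Hox* expression differed between the days in all libraries, day 3 replicate 1 included. The genes of paralogs 5 to 9 held 14.5%, 6.69%, 9.77% and 10.3% on day 2.5 and 21.8%, 36.7%, 42.4% and 42.6% on day 3. The 2 days did not overlap in this share. The summed *Hox* level itself did overlap, with 46.0, 130, 55.3 and 55.0 RPKM on day 2.5 and 48.6, 292, 170 and 108 RPKM on day 3. These shares describe the same values as the tests above and were not tested, and genes without reads enter them at 0.9 reads.

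Replicate by replicate, 19 of the 27 *Hox1–9* genes were higher on day 3 in replicate 1, 27 in replicate 2, 25 in replicate 3 and 25 in replicate 4. The median change of these genes was 0.70 in replicate 1 and 3.05, 3.50 and 3.03 in replicates 2, 3 and 4. In replicate 1 most of these genes were thus higher too, by a smaller median change, while 8 of the 27 were lower on day 3. Depth alone moved *Hoxd12*, a gene without reads, by -0.83 in replicate 1 and by 2.06 in replicate 4. Over all 73 genes, 24 (32.9%) were higher on day 3 in all 4 replicate numbers, of which 19 were *Hox1–9* genes, and 10 (13.7%) were lower in all 4, all of them pluripotency factors.

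**Figure D4:**
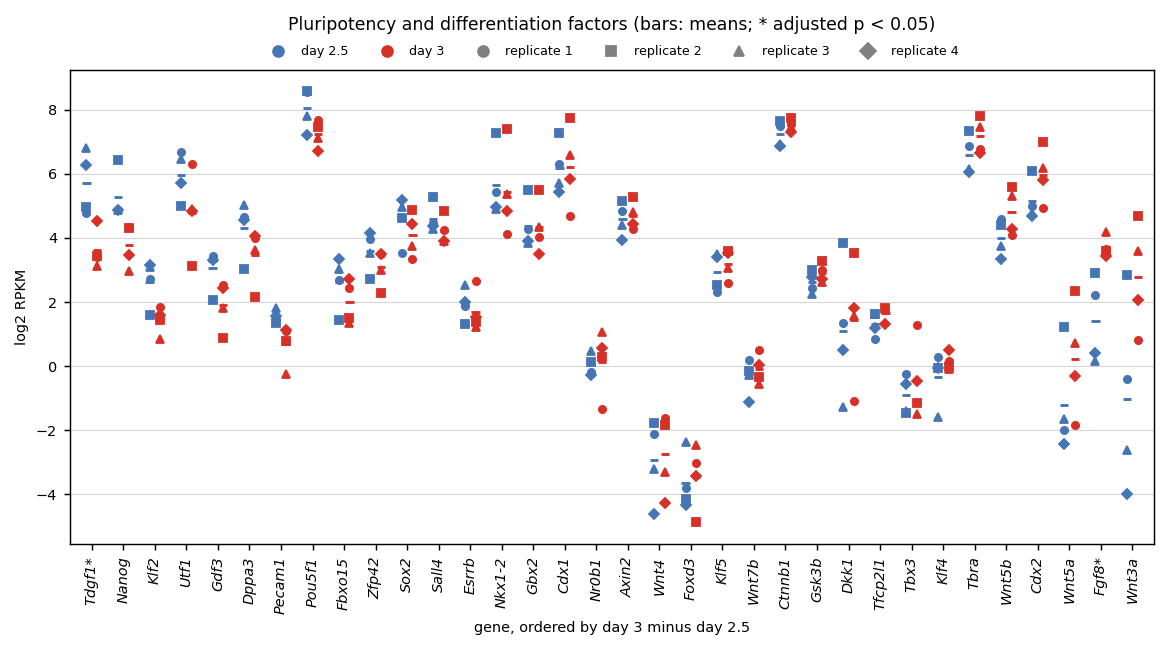
Level (log2 RPKM, vertical axis) of the 34 pluripotency and differentiation factors in the wild-type libraries of day 2.5 (blue) and day 3 (red), ordered from the most negative to the most positive difference, with a marker shape for each replicate number, lines for means and asterisks for the 2 genes called. *Tdgf1* is at the left end, *Fgf8* and *Wnt3a* are at the right, and the caudal factors *Tbra* and *Cdx1* are high on both days.

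Among the 34 factors, 1 rose and 1 fell. *Fgf8*, a growth factor of the caudal embryo that keeps progenitors undifferentiated (chromosome 19, 45736798 to 45742915), measured 2.21, 2.91, 0.16 and 0.41 on day 2.5 and 3.67, 3.60, 4.19 and 3.42 on day 3. All day 3 libraries were higher and close to each other, while replicates 3 and 4 of day 2.5 were low, with 3 and 31 reads. Its difference was 2.30 ± 0.69 (SE, n = 4 per day, limma adjusted p = 0.0393). *Wnt3a*, the Wnt ligand of the tailbud, measured -0.41, 2.85, -2.61 and -3.99 on day 2.5 and 0.81, 4.67, 3.61 and 2.07 on day 3. These values rest on 62, 754, 0 and 3 reads on day 2.5 and on 255, 2643, 71 and 48 on day 3. The value of day 2.5 replicate 3 is thus the level set by its depth. *Wnt3a* was higher on day 3 in each replicate number, but day 2.5 replicate 2 lay above 2 of the day 3 libraries. Its difference of 3.83 ± 1.37 did not pass the test (limma adjusted p = 0.0664), passed it under the replicate block (adjusted p = 0.0447), and its adjusted p ranged from 0.0158 to 0.306 over all alternatives.

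The other Wnt ligands and pathway members of the table were not called. The 5 Wnt ligands differed by 0.17 (*Wnt4*) to 3.83 (*Wnt3a*), with *Wnt5a* at 1.43, *Wnt5b* at 0.80 and *Wnt7b* at 0.26. *Wnt5a* spread widely, with -1.98, 1.23, -1.63 and -2.44 on day 2.5 and -1.85, 2.35, 0.71 and -0.32 on day 3. *Dkk1*, a secreted Wnt antagonist, differed by 0.34 (95% interval -2.24 to 2.92), and its replicate 2 was the highest library of both days. *Axin2*, a negative feedback target of β-catenin, measured 4.83, 5.14, 4.39 and 3.95 on day 2.5 and 4.28, 5.26, 4.81 and 4.43 on day 3 (difference 0.12, 95% interval -1.02 to 1.26), and its sign turned in 3 alternatives. *Ctnnb1* (β-catenin) and *Gsk3b* (the kinase that CHIR99021 inhibits) differed by 0.28 and 0.29. Together, 0 of these 9 Wnt pathway members were called, and 1 (*Wnt3a*) had an unadjusted p-value under 0.05 in the limma fit.

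The caudal transcription factors were high on both days. *Tbra*, the T-box factor of mesoderm formation, measured 6.86, 7.33, 6.15 and 6.04 on day 2.5 and 6.77, 7.78, 7.47 and 6.66 on day 3 (difference 0.58, 95% interval -0.63 to 1.78, limma adjusted p = 0.571). *Cdx1* had means of 6.18 ± 0.81 and 6.21 ± 1.28 (SD, n = 4 per day) and a difference of 0.03 (95% interval -1.58 to 1.63), whose sign turned in 7 alternatives. *Cdx2* differed by 0.84 (95% interval -0.50 to 2.18), with day 3 replicate 1 at 4.93 and the other day 3 libraries at or above 5.80. None of these passed the test, and the intervals leave room for changes of more than 1 log2 unit. *Nkx1-2*, a homeobox gene of the caudal progenitor zone, differed by -0.22, with 7.27 and 7.39 in replicate 2 of day 2.5 and day 3 and no more than 5.44 in the other libraries. *Sox2* differed by -0.48 (95% interval -1.77 to 0.81). Of the 9 caudal and neuromesodermal genes of the table, 1 (*Fgf8*) rose and 8 were not called.

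The promoters of 3 genes are given here to set 2 *Hox* genes that rose beside *Tbra*, which did not pass the test. They are the 250 bases before the start that RefSeq annotates (GRCm38.p6), which for *Hoxd4* lies inside the longer gene model over which its reads were counted. Letters are in lower case with motif matches in capitals. The motifs searched on both strands were CTTTGAA and CTTTGAT, forms of the TCF/LEF site, and TTTATNG, a form of the CDX site.
*Hoxd4*, chr2:74721728-74721977, plus strand: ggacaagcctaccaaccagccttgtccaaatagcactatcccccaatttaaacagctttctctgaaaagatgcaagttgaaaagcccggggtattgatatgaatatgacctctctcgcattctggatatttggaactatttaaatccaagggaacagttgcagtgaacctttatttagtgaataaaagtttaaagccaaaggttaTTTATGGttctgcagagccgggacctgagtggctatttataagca
*Hoxb8*, chr11:96281655-96281904, plus strand: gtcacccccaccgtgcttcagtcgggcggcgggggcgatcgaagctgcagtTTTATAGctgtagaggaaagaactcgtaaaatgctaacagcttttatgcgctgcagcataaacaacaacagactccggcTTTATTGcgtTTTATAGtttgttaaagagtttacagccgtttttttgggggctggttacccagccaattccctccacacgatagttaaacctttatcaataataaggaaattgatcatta
*Tbra*, chr17:8434173-8434422, plus strand: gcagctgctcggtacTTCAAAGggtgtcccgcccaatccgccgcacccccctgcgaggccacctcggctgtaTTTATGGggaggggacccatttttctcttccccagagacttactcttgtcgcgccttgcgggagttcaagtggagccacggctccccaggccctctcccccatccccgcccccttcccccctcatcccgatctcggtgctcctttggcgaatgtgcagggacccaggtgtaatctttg

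The *Hoxd4* window held 1 match to TTTATNG and that of *Hoxb8* held 3. The *Tbra* window held 1 match to TTTATNG and 1 to CTTTGAA, read on the minus strand. Of 32851 windows of this length, 4.46% held CTTTGAA, 3.21% held CTTTGAT and 9.81% held TTTATNG. A window was given for 45 of the 73 genes, and among the 8 genes with one that rose, 2 held TTTATNG and 0 held a TCF/LEF form. These 2 are the *Hox* genes shown, so they do not stand for the other genes that rose. A match is a string of letters and not evidence of binding, and regulatory sequence outside these windows was not searched.

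Of the 19 pluripotency factors, 1 fell (*Tdgf1*), 18 were not called and 13 had a lower mean on day 3, with a median difference of -0.51. *Tdgf1*, which encodes the Nodal co-receptor Cripto (chromosome 9, 110939603 to 110946158), measured 4.78, 4.97, 6.80 and 6.27 on day 2.5 and 3.41, 3.42, 3.12 and 4.54 on day 3. Every day 3 library was below every day 2.5 library, and the difference was -2.08 ± 0.63 (SE, n = 4 per day, limma adjusted p = 0.0393). *Nanog* measured 4.88, 6.43, 4.86 and 4.88 on day 2.5 and 4.34, 4.30, 2.97 and 3.46 on day 3. Its days did not overlap either, its difference of -1.50 had a limma adjusted p of 0.0953, and it was called under the replicate block (adjusted p = 0.0447, with a range of 0.0386 to 0.336 over all alternatives).

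*Pecam1* was the third gene with all day 3 libraries below those of day 2.5, at 1.41, 1.36, 1.80 and 1.56 against 1.11, 0.80, -0.26 and 1.14 (limma adjusted p = 0.330). *Pou5f1*, the gene of OCT4, had the highest level of the pluripotency factors, at 8.04 ± 0.65 on day 2.5 and 7.23 ± 0.43 on day 3 (SD, n = 4 per day), a difference of -0.81 that did not pass the test. *Klf2*, *Utf1* and *Gdf3* differed by -1.20, -1.17 and -1.14, with limma adjusted p-values of 0.155, 0.330 and 0.230. Of the 11 genes listed for naive pluripotency, 1 was called (*Tdgf1*), 6 had a lower and 5 a higher mean on day 3. *Klf4*, *Klf5*, *Tbx3* and *Tfcp2l1* were among those with a higher mean, by 0.26 to 0.49, and none of them passed the test. Of the 7 genes listed for general pluripotency, which share *Tdgf1* with the naive list, 1 was called. *Foxd3* was at -3.65 and -3.44, with at most 15 reads in a library.

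An exact two-sided permutation test of 4 libraries against 4 cannot go below p = 0.0286. The 13 genes whose days did not overlap all had this value. Among the genes called, *Hoxa3*, *Hoxd3*, *Hoxc6* and *Hoxa7* had an exact permutation p of 0.0571. *Wnt3a* had an exact permutation p of 0.0857.

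**Figure D5:**
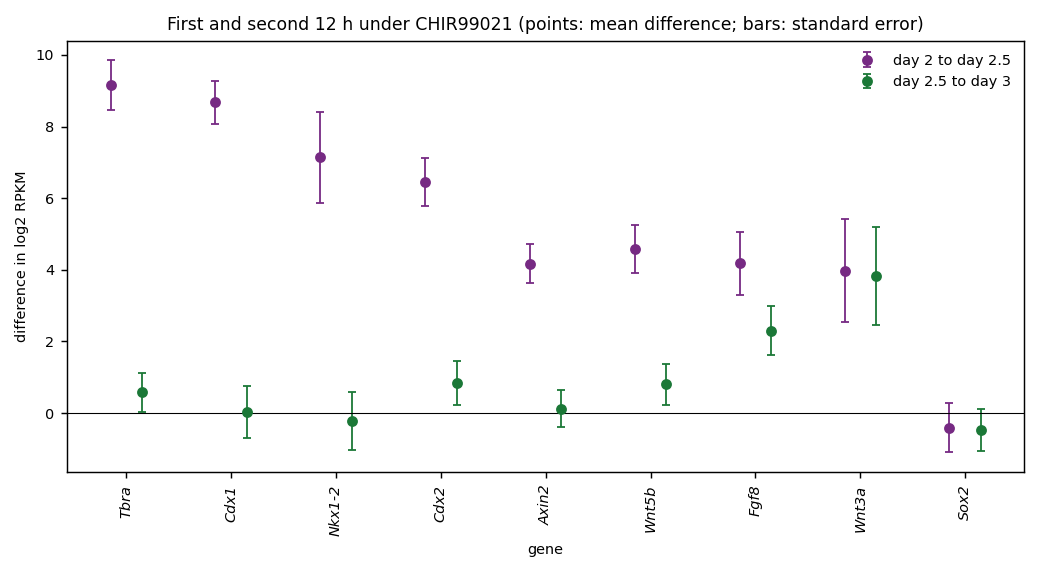
Difference in mean log2 RPKM over the first 12 h of CHIR99021 (day 2 to day 2.5, purple) and over the second (day 2.5 to day 3, green) for caudal and Wnt response factors of wild-type cells, with bars for the standard error of limma. The first step is far above the second for *Tbra*, *Cdx1*, *Nkx1-2*, *Cdx2*, *Axin2* and *Wnt5b*, and the 2 steps share the day 2.5 libraries.

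The second 12 h of CHIR99021 were then set beside the first. The contrast of the 2 steps was tested itself, because both use the day 2.5 libraries. Among the day 2 libraries, replicate 3 held 8269 reads over the factors at 13407486 counted reads, against 34657 at 13828761 in replicate 2. Its *Pou5f1* value was 4.88, against 8.01 to 8.56 in the other day 2 libraries. Its *Ctnnb1* value was 4.63, against 6.29 to 7.48. This library enters each first step given here. In 6 of the 73 genes (8.22%) the second step was smaller (limma adjusted p-value under 0.05), and in 0 it was larger. They were *Tbra*, *Cdx1*, *Cdx2*, *Nkx1-2*, *Axin2* and *Wnt5b*, all of them among the 9 genes of the caudal and neuromesodermal list. *Tbra* had a mean of -2.56 ± 1.09 (SD, n = 4) on day 2, from 17, 12, 2 and 0 reads in replicates 1 to 4, so its first step was 9.15 and its second 0.58, and the contrast was -8.58 ± 1.07 (SE, limma adjusted p = 2.66e-04). The contrast was -8.65 ± 1.17 for *Cdx1*, -5.61 ± 1.10 for *Cdx2* and -4.06 ± 0.83 for *Axin2*. These 4 genes were called in all 21 alternatives. *Nkx1-2* (-7.36 ± 2.08) and *Wnt5b* (-3.78 ± 1.07) were near the threshold, each with a limma adjusted p of 0.0497, and each was called in 9 of the 21. *Nanog* had steps of 1.86 and -1.50, and its contrast of -3.35 ± 1.09 did not pass the test (limma adjusted p = 0.0869) but passed it under the replicate block (adjusted p = 0.0302), with a range of 0.0134 to 0.336 over all alternatives.

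No *Hox* gene was called in that contrast (0 of 39 in the limma fit, with 2 at an unadjusted p-value under 0.05). Day 2 replicate 4 bears on this, since its *Hox* values imply 346039 reads, and 9 reads on the 39 genes, where its factor values imply 2686746 reads. *Hoxb1*, with 5, 1, 1 and 0 reads in day 2 replicates 1 to 4, had steps of 6.89 and 0.85, and its contrast was -6.04 (limma adjusted p = 0.0668), or -7.23 (adjusted p = 6.90e-04) without that library. Over all alternatives its limma adjusted p ranged from 6.90e-04 to 0.271. *Hoxc8* and *Hoxd4* had 0 reads in every day 2 library but replicate 3, in which *Hoxd4* had 1, so no first step is given for them. *Fgf8* and *Wnt3a* had first steps of 4.18 and 3.98 over day 2 libraries that held at most 6 reads and 1 read of them, and their contrasts of -1.88 and -0.15 did not pass the test either.

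The same step was compared with that of maternal null cells, Smchd1[del/+] (maternally deleted), in which Zp3-Cre had removed *Smchd1* in the oocyte and which had 3 libraries on day 2.5 and 4 on day 3. The steps of the 2 genotypes were told apart for 0 of 73 genes (0%) by limma with Benjamini-Hochberg adjustment, and for 0 also without adjustment. A voom fit of whole reads called 0, with 1 gene before adjustment. The smallest p-values belonged to *Tdgf1*, *Hoxc8* and *Hoxa13*. *Tdgf1* fell by 2.08 in wild-type cells and differed by -0.40 in maternal null cells (difference of the steps 1.68, 95% interval -0.04 to 3.40, limma adjusted p = 0.935). *Hoxc8* differed by 4.53 and 2.22 (difference -2.31, 95% interval -4.78 to 0.17), and *Hoxa13* by -1.71 and 0.25. Over the *Hox1–9* genes the median step was 2.38 in wild-type and 1.56 in maternal null cells. Of these 27 genes, 23 had the smaller step in maternal null cells, against 37 of all 73 genes, which include the 27. *Hoxd12*, at the level set for no read, moved by 1.89 in maternal null cells through depth alone, against 0.29 in wild-type cells. Counted reads per maternal null library were 28200610 to 43294575 on day 2.5 and 3479737 to 43787727 on day 3. How far depth enters the steps of other genes with few reads, *Hoxa13* among them, was not tested. The maternal null cells had no library of line 2 on day 2.5 by the labels, so genotype and line are not balanced in this comparison. Maternal null day 2.5 replicate 3 also stood apart in the factors. It held 24998 reads over them at 28200610 counted reads, against 107187 at 31836388 in replicate 1. The SD of *Pou5f1* in maternal null cells was 2.29 on day 2.5 and 0.35 on day 3.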

How the data were processed

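Gene expression was measured by single-end RNA-seq of differentiating mESC cultures. The deposited values are log2 RPKM, which the authors made by trimming (Trim Galore 0.4.4), mapping to GRCm38.p6 (HISAT2 2.0.5, per the submitters' processing notes) and quantifying reads over exons in SeqMonk. The strandedness of each library is not given in the sources used here, so antisense reads cannot be told apart. Whole reads were recovered from 584 of 584 values of the 8 libraries (tolerance 0.01 of a read), from which depth was taken, and intervals cover no source of error beyond the spread between libraries. The deposited raw counts were not used, because the time course headers of that table are unreliable.

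Day 3 was compared with day 2.5 by limma 3.58.1 in R 4.3.3 on the deposited log2 values of all 73 genes in 1 fit, with Benjamini-Hochberg adjustment, a threshold of 0.05 and no filter. The contrast of the 12 h steps and that of the genotypes were fitted in the same way, and exact permutation tests were two-sided. The limma comparison of the days was tried on simulated data with independent, normally distributed values. These had no floor for genes without reads and no differences in depth, so the trial does not cover those features. Genes were named if called, if among the 8 largest differences of either table, if on the Wnt response and neuromesodermal lists, as the paralog 1 and posterior groups, or if among the 3 smallest p-values of the other contrasts, and *Hoxb3*, *Hoxb4*, *Hoxd8*, *Hoxc9*, *Pecam1* and others outside this rule were named after their values were seen. For 1 gene, single values are not reported here and the plots leave it out, while counts and medians over lists include it. The members and lists were chosen with earlier results of these data known.

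Replicate numbers are shared between the days. The deviations of same-numbered libraries from their day means correlated at 0.20, 0.71, 0.52 and 0.22 over the 73 genes, all above 0.1. By this rule the numbers were taken to pair the libraries, and the blocked value stands beside each result whose call it changed. Some libraries of different numbers correlated more strongly. Day 2.5 replicate 3 correlated at 0.64 with day 3 replicate 4, and day 2.5 replicate 4 at 0.28 with day 3 replicate 1. The pairing of replicates 3 and 4 is therefore not settled, and the main fit did not use the pairing. Over the 46 genes with reads in every library, replicate 3 had a correlation of -0.14. Alternatives covered the pseudocount, low values, the model of the spread, the block, line, the samples fitted, leaving out libraries and, chosen after seeing the data, voom on the recovered reads.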

Additional observations from a re-analysis of the deposited data

Results flagged for a closer look

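In 6 of the 146 groups of 4 libraries (73 genes on 2 days), 1 library lay apart from the other three, by a gap whose share of the range of its group was above the 95% critical value of Dixon, where chance flags about 1 group in 20. These were day 3 replicate 1 for *Hoxc8* (ratio of gap to range 0.897, the low library), day 2.5 replicate 4 for *Hoxb6* (0.859, low), day 2.5 replicate 1 for *Hoxc13* (0.862, high), day 2.5 replicate 2 for *Nanog* (0.985, high) and for *Gdf3* (0.892, low), and day 3 replicate 4 for *Tfcp2l1* (0.889, low).

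The second 12 h step differed from the first, by a test of the difference itself, in 6 genes. The differences of the log2 steps were -8.58 for *Tbra*, -8.65 for *Cdx1*, -5.61 for *Cdx2*, -4.06 for *Axin2*, -7.36 for *Nkx1-2* and -3.78 for *Wnt5b*.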

How the results depend on the processing

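The count of genes called between day 2.5 and day 3 depended on the processing, while no called gene turned direction in the alternatives run. Against 15 calls (13 *Hox* genes and 2 factors), log2(RPKM + 1) gave 8 calls, 6 of them *Hox* genes, a filter at a mean of 1 RPKM left 8 *Hox* calls, and a fit of all wild-type libraries gave 8 calls, 6 of them *Hox* genes. Line as a covariate gave 9 calls and 0 factors. Leaving out the pair of replicate 3 gave 2 calls, 2 of them *Hox* genes and 0 factors, and so did voom (2 calls, 2 *Hox* genes, 0 factors, with 19 genes at an unadjusted p-value under 0.05). Line 1 alone gave 0 calls, 0 *Hox* genes and 0 factors. An intensity trend gave 4 factors, all time course libraries in 1 fit gave 1 factor and the factors fitted alone gave 0. With the replicate number as a block there were 19 calls, 4 of them factors, and 13 calls were shared with the fit without it. The block changed no call other than those named beside their results. Leaving out 1 library at a time gave 1 to 23 calls, 1 to 20 *Hox* genes and 0 to 3 factors. The causes were not tested.

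Of the genes that were not called, *Cdx1* turned to -0.25 without the replicate 3 pair, -0.090 in line 1 alone and -0.16 by voom, and ranged from -0.48 to 0.53 when 1 library was left out. *Axin2* turned to -0.00048 in line 1 alone and ranged from -0.090 to 0.31, and *Nkx1-2* from -0.87 to 0.33, when 1 library was left out. The contrast of the 12 h steps gave 4 to 9 calls, against 6 in the fit reported, and the genotype contrast gave 0 in all alternatives. Depth was lowest in replicate 3, in which 23 of the 39 *Hox* genes had no read on day 2.5.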
